A study of Mus musculus with 9 samples.

Results

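Brain vessels are lined by endothelial cells, and the 40 genes described here are used as markers of those cells and of the mural cells that wrap them. Of the 40, 33 are endothelial genes and 7 are mural genes of pericytes and vascular smooth muscle. They were chosen by name as textbook markers, with earlier results of these data known. Each was read from a probe set that carried its gene symbol alone, the brighter one for Foxq1 and Rgs5. All 40 were measured among 22180 genes. The mice were C57BL/6J, an inbred laboratory strain, and total RNA of their anterior cingulate cortex was read on 9 Affymetrix arrays in 3 groups of 3. Ketamine mice (KT) had 1 intraperitoneal dose of 3 mg/kg at ZT5, zeitgeber time being hours after lights on. Sleep-deprived mice (SD) were denied sleep between ZT0 and ZT12 by a slowly turning bar in the cage, and the labels give them no injection. Saline mice had an intraperitoneal injection at ZT5 and were the controls. All mice were killed at ZT13, which was 8 h after either injection and 1 h after the end of sleep deprivation. The ages of the mice were not given in the sources used here. The titles call the arrays of a group biological replicates.

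In the brain, endothelial cells are sealed to each other by tight junctions and carry transporters that decide which solutes pass, an arrangement known as the blood-brain barrier. Vascular endothelial growth factor and angiopoietin receptors on these cells keep the vessels in place, and pericytes are needed to hold the barrier closed. Smooth muscle around arterioles sets blood flow.

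Values are linear intensities of a probe set, and a change is the difference between group means of log2(intensity + 16), with its SE, in a limma fit of all arrays and n = 3 arrays per group. Adjusted p-values are Benjamini-Hochberg values over 22180 genes and were called under 0.05. No gene passed in any of the 3 comparisons: 0.0% of genes were called by limma between ketamine and saline, between SD and saline and between ketamine and SD, against 4.57%, 3.52% and 9.48% at an unadjusted p under 0.05. No member can therefore be said to have changed, and the values below are levels and differences with their errors. Array medians lay between 97.7 and 106.2, and the median SE of a difference was 0.11 on the log2 scale. Every member had a value above 0 in every array, but so did 9 genes not expected in cortex, such as Alb and Ins2, so a value above 0 does not by itself show a transcript. The intensities of these 9 genes summed to between 658 and 928 in an array. Some therefore reached the levels of Ly6c1 and Sox18. Nos3 read only 100.2 to 128 and Slc38a5 only 82.8 to 146. Tie1, Robo4, Foxq1, Erg and Anpep had group means in a similar range, so the same limit applies to them. Ly6c1, Icam2 and Sox18 lay among the dimmest 33.3% of genes, where a change is most damped. In bulk tissue, fewer cells of a type and less RNA per cell cannot be told apart, and a level does not show which cells the transcript came from.

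Between ketamine and SD, endothelial genes were mostly at lower intensity in ketamine. Of the 33 endothelial members, 26 had a lower mean in ketamine, 11 were lower at an unadjusted p under 0.05 and 0 were higher. Over all genes 4.38% were lower and 5.1% higher by the same rule, and 53.0% had a lower and 47.0% a higher mean. Without the dimmest 33.3% of genes, 63.1% had a lower and 36.9% a higher mean. The 11 were 33.3% of the endothelial members, and the same rule picked 5.2% of all genes without the dimmest 33.3%. All members were read on the same arrays, so these are not independent results, and the count fell to 3 without ketamine array 3. Microglial genes had 3 of 9 lower by the same rule. The median difference of the endothelial members was -0.15 on the log2 scale, against -0.012 for all genes and -0.041 for all genes without the dimmest 33.3%. The 7 mural members had a median of -0.048, with 5 of 7 lower and 0 at an unadjusted p under 0.05. The 11 were Vwf, Mfsd2a, Pecam1, Flt1, Nos3, Eng, Cldn5, Emcn, Ly6c1, Kdr and Cdh5.

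**Figure D1:**
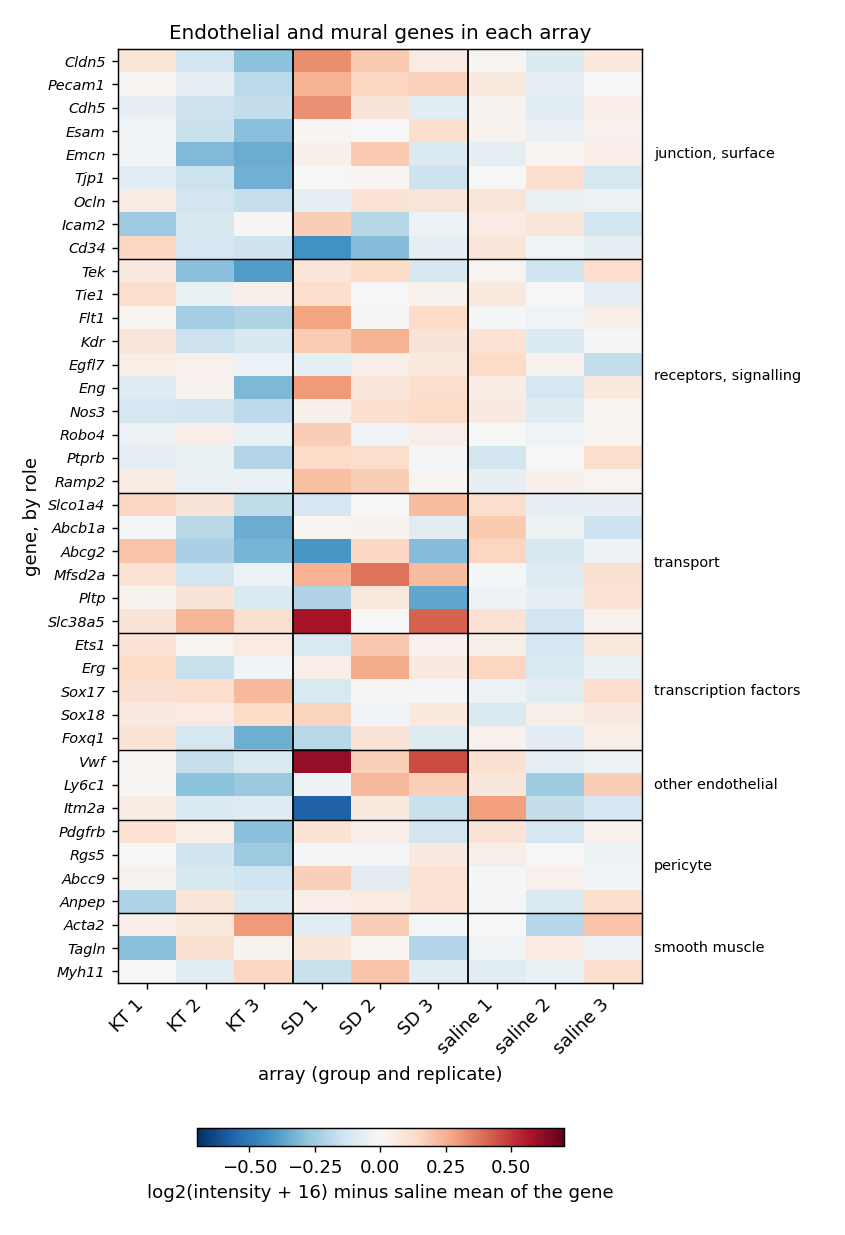
Each row is 1 of the 40 genes, grouped by role, and each column 1 array, ordered ketamine (KT), SD and saline. Colour gives log2(intensity + 16) minus the gene's mean over the 3 saline arrays, red for higher and blue for lower. Ketamine arrays 2 and 3 are blue over most junction and receptor genes while ketamine array 1 is near 0, and Vwf is deepest red in SD array 1.

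Von Willebrand factor, the secreted multimer that tethers platelets and is stored in endothelial granules, gave the widest difference of any member. Vwf (probe set 17463205) had intensities of 145, 126 and 131 in the ketamine arrays, 228, 162 and 202 in the SD arrays and 155, 136 and 139 in the saline arrays. The ketamine arrays all lay below the SD arrays, and the SD arrays all lay above the saline arrays, with SD array 2 the lowest of its group. The mean was 134 ± 9.85 in ketamine, 197 ± 33.1 in SD and 143 ± 10.4 in saline (standard deviation, n = 3 each). The difference was -0.50 ± 0.12 between ketamine and SD (limma, unadjusted p = 0.000802, adjusted p = 0.335) and 0.41 ± 0.12 between SD and saline (limma, unadjusted p = 0.00329, adjusted p = 1.00). Ketamine and saline arrays overlapped, at -0.085 ± 0.12. The unadjusted p of Vwf stayed under 0.05 in all 20 alternative analyses for ketamine against SD and for SD against saline. Of the other 2 endothelial markers outside the groups by role, Ly6c1, which encodes a GPI-anchored surface protein of mouse capillary endothelium, is dim on this array. Its intensities were 42.5, 31.7 and 32.6 in the ketamine arrays, 40.7, 52.2 and 49.3 in the SD arrays and 45.4, 33.0 and 49.5 in the saline arrays. Ketamine array 1 reached into the SD range, and the difference of ketamine from SD was -0.30 ± 0.13 (limma, unadjusted p = 0.0331). Itm2a, an integral membrane protein gene, had 524, 472 and 473 in the ketamine arrays, 336, 531 and 451 in the SD arrays and 618, 447 and 464 in the saline arrays, and SD array 1 and saline array 1 lay apart in opposite directions.

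Junction and surface genes had a lower mean in ketamine than in SD in 8 of 9 members, against 53.0% of all genes, with a median of -0.20. Of the 9, 4 were lower at an unadjusted p under 0.05, against 4.38% of all genes, and these 4 are among the 11 named above. Claudin-5 is the main tight junction claudin of brain endothelium. Cldn5 (probe set 17323755) had 149, 126 and 112 in the ketamine arrays, 179, 161 and 146 in the SD arrays and 142, 129.6 and 148 in the saline arrays. Ketamine array 1 lay above SD array 3, so the groups overlapped by that pair. The difference was -0.30 ± 0.11 (limma, unadjusted p = 0.0182, adjusted p = 0.474). That p was no longer under 0.05 without SD array 1, without ketamine array 3, or without ketamine array 3 and SD array 2 together. Pecam1, the gene of the adhesion molecule CD31 that lines endothelial contacts, had 269, 256 and 233 in the ketamine arrays, 319, 298 and 300.0 in the SD arrays and 281, 253 and 267 in the saline arrays. Every SD array lay above every ketamine and every saline array. The difference of ketamine from SD was -0.26 ± 0.09 (limma, unadjusted p = 0.0129), and SD exceeded saline by 0.19 ± 0.09 (limma, unadjusted p = 0.0614).

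Cdh5 encodes VE-cadherin, the cadherin of endothelial adherens junctions. It had 329.7, 309 and 305 in the ketamine arrays, 433, 367 and 326 in the SD arrays and 349, 326 and 355 in the saline arrays, and SD array 1 stood above the rest. The difference of ketamine from SD was -0.24 ± 0.11 (limma, unadjusted p = 0.0431), and ketamine array 1 lay above SD array 3. That p was under 0.05 in 9 of 20 alternative analyses and reached 0.224 without SD array 1. Emcn, the gene of the sialomucin endomucin found on capillaries and veins, had 178, 143 and 139 in the ketamine arrays, 185, 208 and 167 in the SD arrays and 172, 183 and 188 in the saline arrays. Ketamine arrays 2 and 3 lay below all SD and saline arrays, while ketamine array 1 lay among them. The difference was -0.26 ± 0.11 between ketamine and SD (limma, unadjusted p = 0.0312) and -0.23 ± 0.11 between ketamine and saline (limma, unadjusted p = 0.0597, adjusted p = 0.87), the widest of any member between ketamine and saline. Esam, an endothelial adhesion molecule gene, had 133, 120.4 and 108 in the ketamine arrays, 137, 136 and 149 in the SD arrays and 139, 131 and 139 in the saline arrays, and all ketamine arrays lay below all SD arrays.

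Tjp1 and Ocln, also of the tight junction, had ketamine arrays that overlapped both other groups. Tjp1, encoding the scaffold ZO-1, ranged over 799.6 to 956 in ketamine, 912 to 1022 in SD and 933 to 1096 in saline, and its difference from saline after ketamine was -0.19 ± 0.10 (limma, unadjusted p = 0.0859, adjusted p = 0.87). Ocln, encoding occludin, ranged over 161 to 189.5 in ketamine, 173 to 195 in SD and 175 to 194 in saline, with all groups overlapping. Icam2, a ligand of leukocyte integrins, ranged over 67.1 to 83.6 in ketamine, 70.3 to 95.7 in SD and 74.4 to 88.6 in saline. Cd34, a sialomucin gene of endothelium and blood progenitors, was the 1 junction or surface gene with a higher mean in ketamine than in SD. It had 882, 734 and 719 in the ketamine arrays, 589, 642 and 760.2 in the SD arrays and 846, 785 and 762 in the saline arrays, and all SD arrays lay below all saline arrays, SD array 3 only just below saline array 3. The difference was -0.27 ± 0.11 between SD and saline (limma, unadjusted p = 0.0356, adjusted p = 1.00), and its unadjusted p reached 0.05 or more without saline array 1, saline array 2, SD array 1 or SD array 2, and without SD array 2 and ketamine array 3 together.

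**Figure D2:**
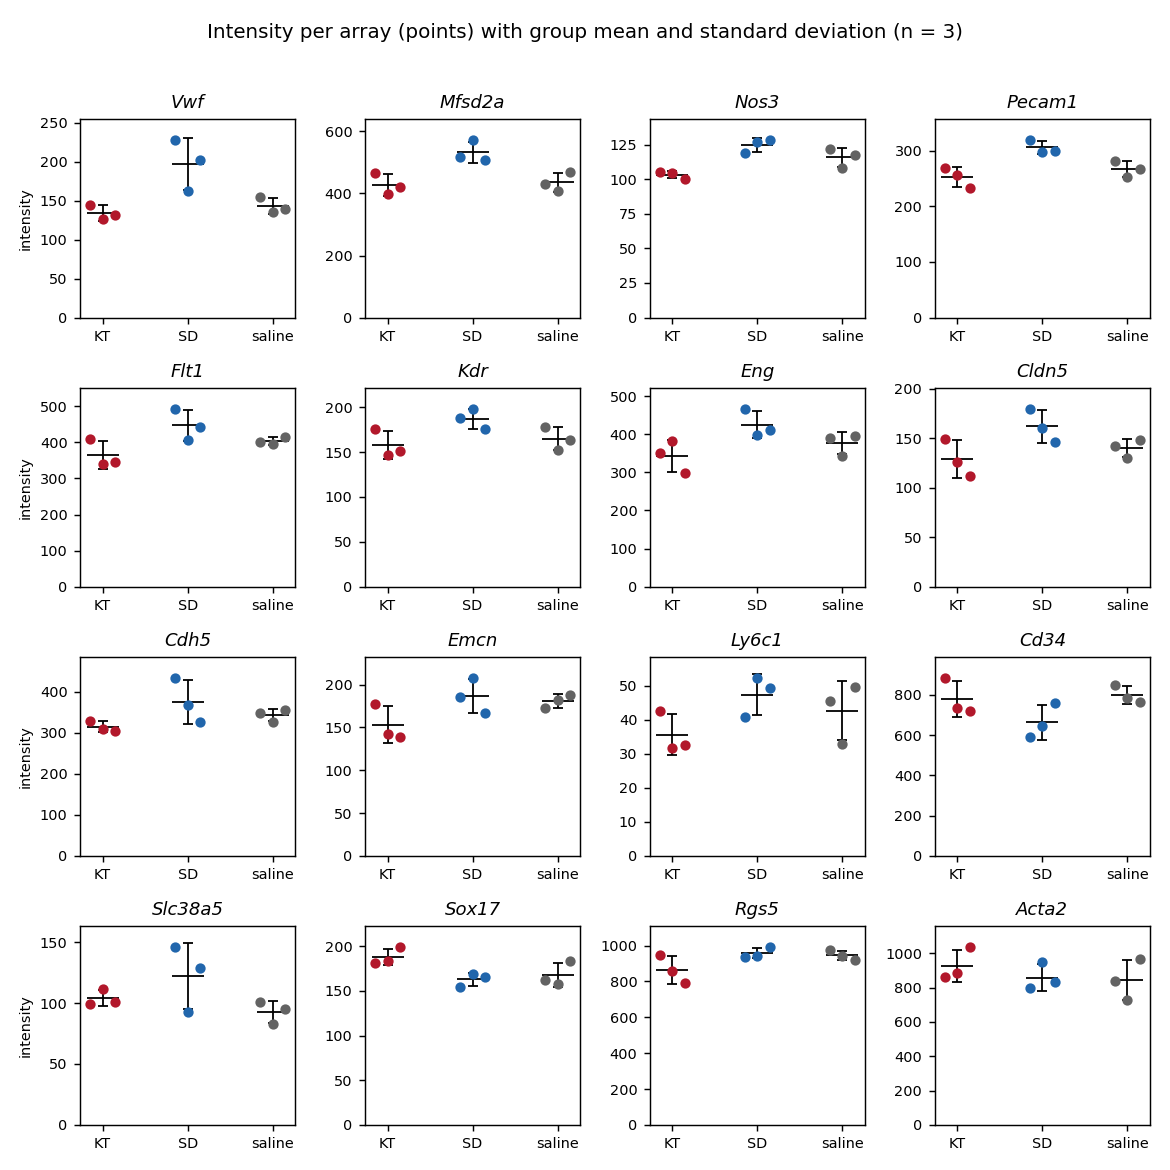
Each panel shows 1 gene, with linear intensity on the vertical axis from 0 and the ketamine (KT), SD and saline groups from left to right. Points are single arrays, long bars group means and whiskers standard deviations (n = 3). Vwf, Mfsd2a, Nos3 and Pecam1 have every SD point above every ketamine point, whereas Cd34 has its lowest points in SD.

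All 10 receptor and signalling genes had a lower mean in ketamine than in SD and a higher mean in SD than in saline, while 8 of 10 had a lower mean in ketamine than in saline. The median was -0.21 between ketamine and SD, 0.087 between SD and saline and -0.084 between ketamine and saline. These differences share groups with each other, so a low ketamine or high SD array enters more than 1 of them. Over all genes 53.0% had a lower mean in ketamine than in SD, 46.6% a higher mean in SD than in saline and 54.6% a lower mean in ketamine than in saline. Flt1 and Kdr encode the VEGF receptors VEGFR1 and VEGFR2. Flt1 had 409, 340.1 and 346 in the ketamine arrays, 492, 407 and 443 in the SD arrays and 399.6, 396 and 416 in the saline arrays. Ketamine array 1 stood just above SD array 2, and the difference of ketamine from SD was -0.28 ± 0.10 (limma, unadjusted p = 0.0155, adjusted p = 0.467). Kdr had 176, 146 and 151 in the ketamine arrays, 188, 198 and 176 in the SD arrays and 178, 153 and 164 in the saline arrays. Ketamine array 1 and SD array 3 were nearly equal, with no overlap, and the difference was -0.23 ± 0.10 (limma, unadjusted p = 0.0373).

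Nos3, endothelial nitric oxide synthase, makes the gas that relaxes vascular smooth muscle. Nos3 (probe set 17435282) had 105, 104 and 100.2 in the ketamine arrays, 119, 127 and 128 in the SD arrays and 122, 108 and 118 in the saline arrays. Its ketamine arrays lay below every SD and every saline array, and it was the only member whose ketamine and saline arrays did not overlap, where 7.89% of all genes lay apart in that direction. No member had every ketamine array above every saline array, against 6.48% of all genes. The mean was 103 ± 2.60 in ketamine, 125 ± 4.86 in SD and 116 ± 6.70 in saline (standard deviation, n = 3 each). The difference was -0.24 ± 0.09 between ketamine and SD (limma, unadjusted p = 0.0156, adjusted p = 0.467) and -0.15 ± 0.09 between ketamine and saline (limma, unadjusted p = 0.117). Against SD, its unadjusted p was under 0.05 in 19 of 20 alternative analyses and 0.0501 without ketamine array 3 and SD array 2 together. Eng encodes endoglin, a co-receptor for TGF-beta and BMP ligands. It had 351, 382 and 299 in the ketamine arrays, 466, 399 and 411 in the SD arrays and 389.8, 344 and 395 in the saline arrays, with ketamine array 3 the lowest and SD array 1 the highest of all 9. Ketamine lay below SD in every array, by -0.30 ± 0.11 (limma, unadjusted p = 0.017), and SD lay above saline in every array, by 0.17 ± 0.11 (limma, unadjusted p = 0.145).

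Tek, the angiopoietin receptor Tie2, had 201, 154 and 142 in the ketamine arrays, 205, 211 and 176 in the SD arrays and 194, 172 and 209.7 in the saline arrays. As with Emcn, ketamine arrays 2 and 3 were the lowest and ketamine array 1 lay among the others, at -0.21 ± 0.12 against saline (limma, unadjusted p = 0.118, adjusted p = 0.87). Ptprb encodes VE-PTP, the phosphatase that acts on Tie2. It had 396, 401 and 359.7 in the ketamine arrays, 458, 455 and 412 in the SD arrays and 380.4, 418 and 455 in the saline arrays, and the ketamine arrays all lay below the SD arrays. Ramp2, the partner of the adrenomedullin receptor, ranged over 129 to 139 in ketamine, 135 to 157 in SD and 128 to 137 in saline. The remaining members of this group differed least between ketamine and SD. Tie1, the orphan relative of Tie2, ranged over 97.1 to 111 in ketamine, 100.5 to 111 in SD and 95.1 to 106 in saline. Robo4, a guidance receptor that steadies the vessel wall, ranged over 109.8 to 119 in ketamine, 112 to 131 in SD and 112 to 116 in saline, and Egfl7, a secreted endothelial protein, over 143 to 153 in ketamine, 141 to 156 in SD and 130.2 to 165 in saline. Their groups overlapped in all 3 comparisons.

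**Figure D3:**
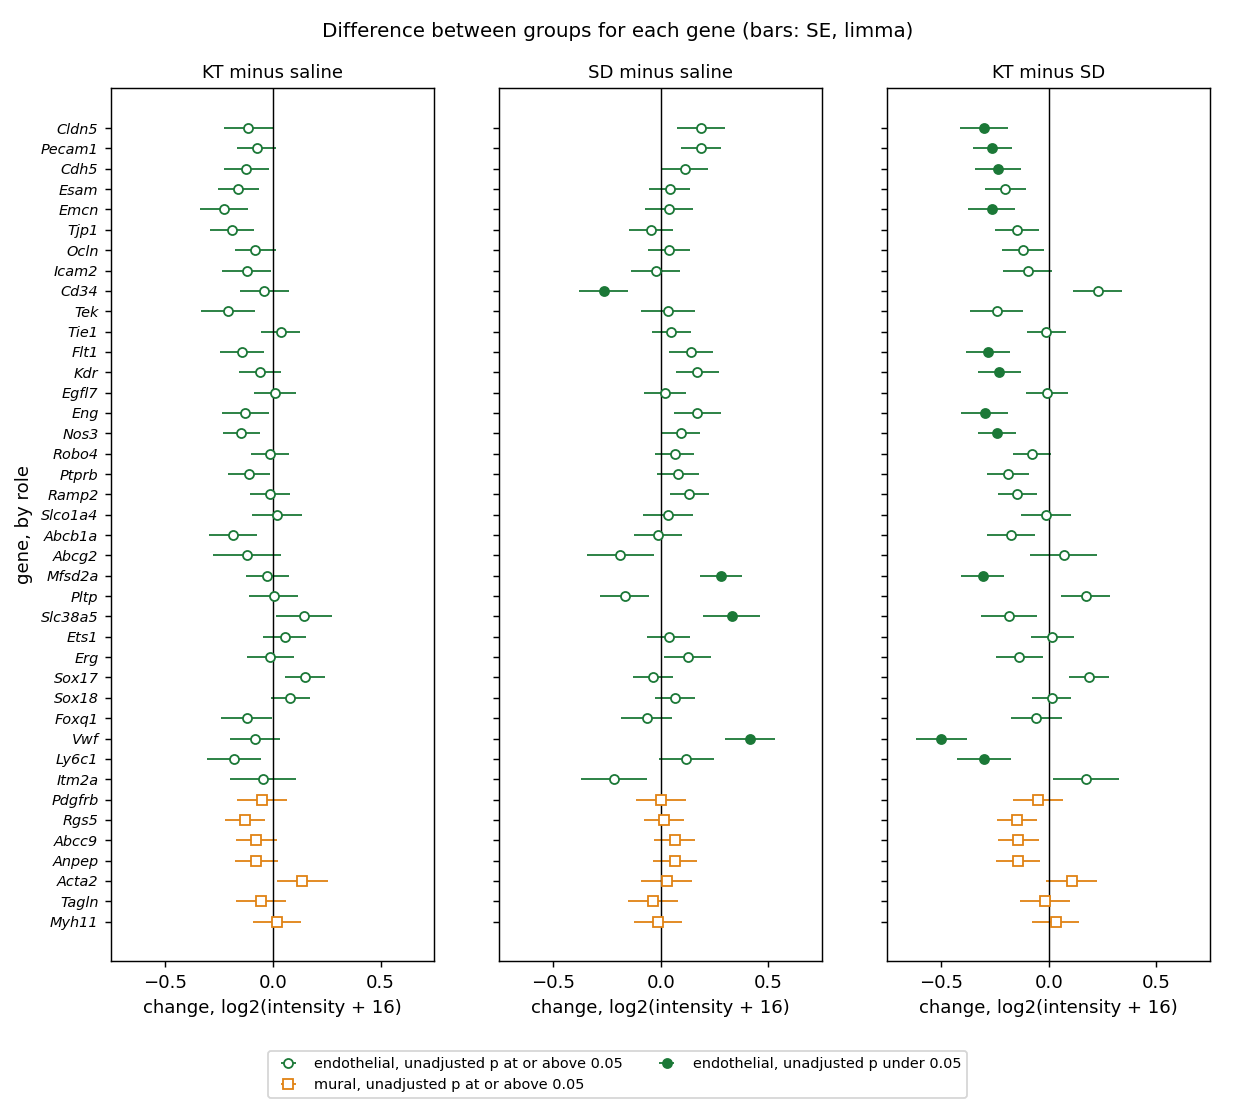
Each row is 1 of the 40 genes, in the order of roles used in the text, with circles for endothelial and squares for mural genes. The horizontal axes give the difference of log2(intensity + 16) for ketamine (KT) minus saline, SD minus saline and KT minus SD, with SE bars. Filled symbols have an unadjusted p under 0.05, with 11 left of 0 for KT minus SD, 3 right of 0 and 1 left of 0 for SD minus saline, and 0 for KT minus saline.

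Transport genes did not share 1 direction. A lower mean in ketamine than in SD was found in 4 of 6, against 53.0% of all genes, with a median of -0.093. Mfsd2a carries lysophosphatidylcholine with docosahexaenoic acid into the brain and is needed to keep transcytosis low at the barrier. Mfsd2a (probe set 17429632) had 467, 397 and 422 in the ketamine arrays, 519, 572 and 509 in the SD arrays and 431, 408 and 469.7 in the saline arrays. The SD arrays lay above every ketamine and every saline array, and ketamine and saline arrays lay among each other. The mean was 429 ± 35.4 in ketamine, 533 ± 34.1 in SD and 436 ± 31.1 in saline (standard deviation, n = 3 each). The difference was -0.31 ± 0.10 between ketamine and SD (limma, unadjusted p = 0.00769, adjusted p = 0.42) and 0.28 ± 0.10 between SD and saline (limma, unadjusted p = 0.0127, adjusted p = 1.00). Its unadjusted p for ketamine against SD stayed under 0.05 in all 20 alternatives, and for SD against saline it was 0.0595 without saline array 2.

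Slc38a5, a sodium-coupled carrier of glutamine and other neutral amino acids, had 99.6, 112 and 101 in the ketamine arrays, 146, 92.5 and 128 in the SD arrays and 101, 82.8 and 94.9 in the saline arrays. SD arrays 1 and 3 were the highest of all, but SD array 2 lay within the saline range, and the difference of SD from saline was 0.33 ± 0.13 (limma, unadjusted p = 0.0257, adjusted p = 1.00). That p was no longer under 0.05 without saline array 2, SD array 1 or SD array 3. Abcb1a, the gene of the efflux pump P-glycoprotein, ranged over 275 to 352 in ketamine, 337 to 361 in SD and 319.6 to 405 in saline. Abcg2, another efflux pump gene, ranged over 183 to 271 in ketamine, 173 to 261 in SD and 215 to 262 in saline, with groups overlapping in every comparison. Slco1a4, an organic anion transporter, ranged over 573 to 721 in ketamine, 598 to 757 in SD and 621 to 708 in saline. Pltp, the phospholipid transfer protein gene, ranged over 794 to 909 in ketamine, 660.1 to 899.8 in SD and 817 to 913 in saline, and SD array 3 was its lowest value.

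Transcription factor genes of endothelium had medians near 0, at 0.014 between ketamine and SD, 0.038 between SD and saline and 0.055 between ketamine and saline. Ets1, an ETS family factor, ranged over 128 to 135 in ketamine, 116 to 146 in SD and 115 to 133 in saline. Erg, of the same family, ranged over 97.7 to 123 in ketamine, 115 to 136 in SD and 101 to 124 in saline, with SD array 2 the highest. Sox17, a factor of arterial identity, had 181, 184 and 199 in the ketamine arrays, 155, 169 and 166 in the SD arrays and 163, 158 and 183 in the saline arrays. It was the only member whose ketamine arrays all lay above the SD arrays, where 4.53% of all genes lay apart in that direction, and the unadjusted p was not under 0.05. Sox18 ranged over 76.7 to 81.4 in ketamine, 72.0 to 83.3 in SD and 67.0 to 77.2 in saline, and Foxq1, a forkhead factor of brain endothelium, over 83.5 to 119 in ketamine, 94.1 to 118 in SD and 104 to 114 in saline on its brighter probe set. In all, 8 endothelial members had every ketamine array below every SD array, namely Vwf, Pecam1, Kdr, Esam, Eng, Mfsd2a, Nos3 and Ptprb, against 5.54% of all genes. With Sox17 that made 9 members whose ketamine and SD arrays did not overlap, against 10.1% of all genes.

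Between SD and saline, 24 of 33 endothelial members had a higher mean in SD, with a median of 0.049 against -0.009 for all genes. The 3 higher at an unadjusted p under 0.05 were Vwf, Mfsd2a and Slc38a5, against 1.8% of all genes, and Cd34 was lower, against 1.72%. Vwf, Pecam1, Eng and Mfsd2a had every SD array above every saline array, against 3.57% of all genes, and Cd34 had every SD array below, against 3.54%, or 7.11% of all genes in either direction. The other 9 endothelial members had a lower mean in SD, against 53.4% of all genes. Between ketamine and saline, 25 of 33 endothelial members had a lower mean in ketamine, with a median of -0.081. Over all genes 54.6% had a lower mean and the median was -0.015. Without the dimmest 33.3% of genes, 64.5% had a lower mean and the median was -0.041. None of the 40 members reached an unadjusted p under 0.05 in either direction, against 2.35% of all genes lower and 2.21% higher. All 9 junction and surface genes had a lower mean in ketamine than in saline, with a median of -0.12. Their median relative to the saline means was -0.021, -0.14 and -0.18 in ketamine arrays 1, 2 and 3.

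The mural genes gave no member under 0.05 unadjusted and no pair of groups without overlap. By the same rule 4.57%, 3.52% and 9.48% of all genes were under 0.05 for ketamine against saline, SD against saline and ketamine against SD. In the same order, 14.4%, 7.11% and 10.1% of all genes did not overlap. With only 7 mural genes, a count of 0 does not set them apart from other genes. The 4 pericyte genes had lower means in ketamine than in SD and saline alike, as did 53.0% and 54.6% of all genes. Their medians were -0.14 against SD and -0.076 against saline. Rgs5, a regulator of G protein signalling, had 947, 857 and 791 in the ketamine arrays, 939, 942 and 990.1 in the SD arrays and 973, 944 and 921 in the saline arrays. Ketamine arrays 2 and 3 lay below all others, while ketamine array 1 lay within the saline range, at -0.13 ± 0.09 against saline (limma, unadjusted p = 0.181) and -0.15 ± 0.09 against SD (limma, unadjusted p = 0.136, adjusted p = 0.598). A dimmer Rgs5 probe set read 293, 382 and 236 in ketamine, 471, 308 and 283 in SD and 354, 422 and 371 in saline, with another order of arrays. Anpep, the ectopeptidase CD13, had 91.6, 116 and 100.5 in the ketamine arrays, 113, 114 and 117 in the SD arrays and 108, 100.3 and 119 in the saline arrays, and ketamine array 1 was its lowest value. Abcc9, the SUR2 subunit of the potassium channel of pericytes, had 204, 185 and 181 in the ketamine arrays, 227, 190.1 and 217 in the SD arrays and 199.6, 205 and 198 in the saline arrays. The difference of ketamine from SD was -0.14 ± 0.10 for Anpep (limma, unadjusted p = 0.18, adjusted p = 0.63) and -0.14 ± 0.09 for Abcc9 (limma, unadjusted p = 0.16). The difference of SD from saline was 0.066 ± 0.10 for Anpep (limma, unadjusted p = 0.524, adjusted p = 1.00) and 0.065 ± 0.09 for Abcc9 (limma, unadjusted p = 0.504, adjusted p = 1.00), the widest of the mural genes there. Pdgfrb, the PDGF receptor through which endothelium recruits pericytes, ranged over 220.0 to 293 in ketamine, 247 to 293 in SD and 250.1 to 291 in saline, and ketamine array 3 was the lowest.

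The 3 contractile genes of smooth muscle had medians of 0.032 between ketamine and SD and 0.020 between ketamine and saline. Acta2, smooth muscle actin, had 861, 885 and 1034 in the ketamine arrays, 797, 947 and 830.0 in the SD arrays and 839, 729.6 and 965 in the saline arrays. Ketamine array 3, the lowest array for Rgs5 and Pdgfrb, was the highest for Acta2, and the difference of ketamine from saline was 0.14 ± 0.12 (limma, unadjusted p = 0.27, adjusted p = 0.871). Myh11, smooth muscle myosin, ranged over 313 to 368 in ketamine, 297 to 383 in SD and 314 to 362 in saline, and Tagln, the actin-binding transgelin, over 157 to 212 in ketamine, 168 to 209 in SD and 191 to 205 in saline. Groups overlapped for all 3 genes. The median of the 7 mural genes was -0.056 between ketamine and saline and 0.016 between SD and saline. The last ranged from -0.018 to 0.049 when single arrays were left out, so its sign was not settled.

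The arrays behind these medians were not alike within the ketamine group. The endothelial median relative to the saline means was 0.052, -0.12 and -0.16 in ketamine arrays 1, 2 and 3, against 0.049, 0.090 and 0.041 in the SD arrays and 0.052, -0.069 and 0.021 in the saline arrays. Ketamine array 1 thus lay within the SD range, and ketamine arrays 2 and 3 lay below every other array. The mural median was 0.002, 0.046 and -0.099 in the ketamine arrays, 0.044, 0.035 and -0.015 in the SD arrays and -0.008, -0.048 and 0.028 in the saline arrays. Over all genes without the dimmest 33.3% it was 0.009, -0.043 and -0.095 in the ketamine arrays, -0.029, 0.063 and -0.028 in the SD arrays and 0.004, -0.008 and 0.003 in the saline arrays. Ketamine array 3 was thus the lowest array over bright genes in general. The dimmest 33.3% ran the other way, at 0.13 in ketamine array 3 and -0.12 in SD array 2. The part of this shift in the endothelial differences was not tested, but without ketamine array 3 and SD array 2 the endothelial median between ketamine and SD was -0.10, and 6 members were lower at an unadjusted p under 0.05. Without ketamine array 3 alone the count of 11 became 3 (Vwf, Mfsd2a and Nos3), without SD array 1 it became 5 and without ketamine array 2 it became 6. Over the 20 alternative analyses the unadjusted p between ketamine and SD was under 0.05 in 19 for Pecam1, 17 for Cldn5, 16 for Flt1, 16 for Eng, 14 for Emcn and 13 for Kdr, and for Ly6c1 in 13 of the 19 that held it. Without ketamine array 3 the endothelial median between ketamine and saline was -0.022.

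**Figure D4:**
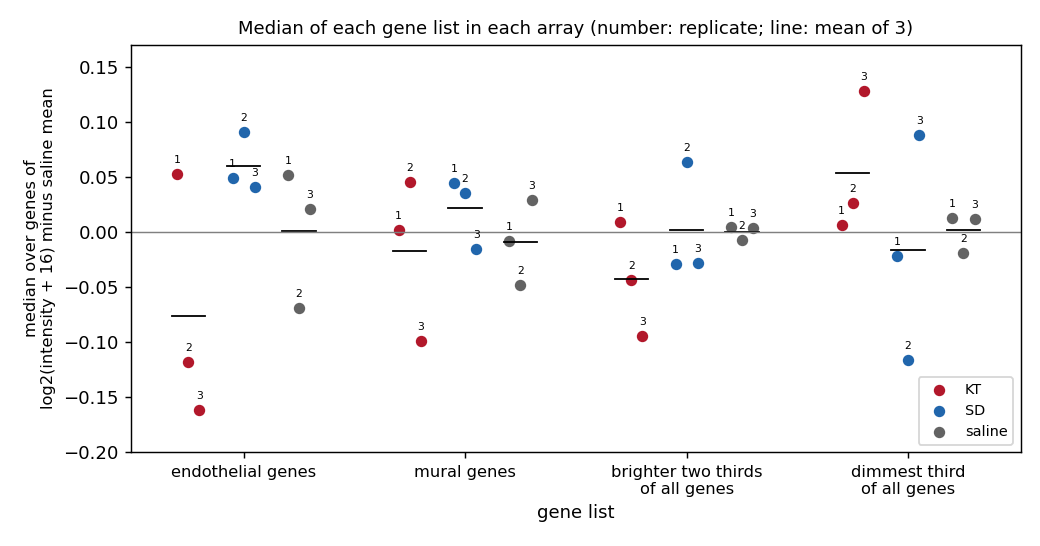
Each point is 1 array, numbered by replicate and coloured by group, at the median over the genes of a list of log2(intensity + 16) minus the gene's saline mean, and lines are means of 3 arrays. Lists from left to right are the 33 endothelial genes, the 7 mural genes, the brighter part of all genes and the dimmest 33.3% of all genes. Ketamine (KT) arrays 2 and 3 are the lowest endothelial points, at -0.12 and -0.16, and ketamine array 1 is at 0.052.

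Other genes of the same pathways were read as whole lists. Of 31 measured ligands, receptors and targets of vascular signalling, 4 were lower in ketamine than in SD at an unadjusted p under 0.05 and 0 higher, with a median of -0.045. For this and the following lists, the same rule picked 4.38% of all genes as lower and 5.1% as higher. Pdgfb, the PDGF ligand that endothelium sends to pericytes, had 232, 213 and 195 in the ketamine arrays, 287, 339 and 244 in the SD arrays and 225, 214 and 240.1 in the saline arrays. All SD arrays lay above all others, and Nrp1, a co-receptor for VEGF and semaphorins, followed the same order with 292, 287 and 227 in the ketamine arrays, 337, 376 and 325 in the SD arrays and 283, 261 and 258 in the saline arrays. The difference of ketamine from SD was -0.41 ± 0.12 for Pdgfb (limma, unadjusted p = 0.00343, adjusted p = 0.376) and -0.35 ± 0.11 for Nrp1 (unadjusted p = 0.00609, adjusted p = 0.397). The other 2 were Smad7, an inhibitor of TGF-beta signalling, at -0.38 ± 0.13 and Calcrl, the receptor that pairs with Ramp2, at -0.23 ± 0.11. Between SD and saline, 5 of the 31 had every SD array above every saline array, against 3.57% of all genes. Among these were Nrp1, Pdgfb and the Notch ligand gene Dll4, at 0.35 ± 0.11, 0.33 ± 0.12 and 0.31 ± 0.12. The median of the 31 was 0.037. Between ketamine and saline Calcrl alone had an unadjusted p under 0.05, at -0.24 ± 0.11, and the median was -0.025.

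Further transport and junction genes of the barrier numbered 25, of which 3 were lower in ketamine than in SD at an unadjusted p under 0.05 and 0 higher, with a median of -0.032. These were Lrp8, a lipoprotein receptor also of neurons, at -0.33 ± 0.10, Slc16a1, the monocarboxylate carrier MCT1, at -0.23 ± 0.10, and Slc2a1, the glucose carrier GLUT1, at -0.21 ± 0.09. Slc2a1 had 1280.2, 1153 and 1230.0 in the ketamine arrays, 1327, 1475 and 1445 in the SD arrays and 1347, 1258 and 1344 in the saline arrays, and its ketamine and SD arrays did not overlap. Between SD and saline Lrp8 was at 0.25 ± 0.10 and Tfrc, the transferrin receptor, at -0.28 ± 0.11, around a list median of -0.013. Between ketamine and saline 21 of the 25 had a lower mean, the median was -0.047, and Slco1c1, a thyroid hormone carrier shared with astrocytes, was at -0.23 ± 0.10. Of 17 measured genes of the Wnt pathway that builds the barrier, 0 reached an unadjusted p under 0.05 in any comparison, with medians of -0.009 between ketamine and SD, -0.014 between SD and saline and -0.034 between ketamine and saline.

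Among 19 genes of endothelial activation and clotting, 1 was lower and 1 higher in ketamine than in SD at an unadjusted p under 0.05, around a median of -0.008. Il1r1, the interleukin-1 receptor, had 95.3, 97.5 and 104 in the ketamine arrays, 133, 122 and 140.5 in the SD arrays and 125, 102 and 106 in the saline arrays, and ketamine lay below SD in every array, by -0.36 ± 0.10 (limma, unadjusted p = 0.00227, adjusted p = 0.375). Ccl2, a monocyte-attracting chemokine, was at 0.29 ± 0.12. Between SD and saline Il1r1 was at 0.22 ± 0.10 and Ackr1, the chemokine-binding receptor of venules, at 0.28 ± 0.12, with a list median of 0.042, and between ketamine and saline the median was 0.034 with 0 genes at that p. Of 25 further mural genes, Cald1, the smooth muscle regulator caldesmon, was at -0.22 ± 0.08 between ketamine and SD and Cnn1, calponin, at 0.26 ± 0.11 between ketamine and saline. Their medians were -0.019 between ketamine and SD, 0.015 between SD and saline and -0.046 between ketamine and saline.

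Markers of other cells were read on the same arrays. Microglial genes had 3 of 9 lower in ketamine than in SD at an unadjusted p under 0.05, the same 33.3% as the endothelial members, with a median of -0.062. Astrocyte genes had 2 of 10 lower and a median of -0.039 against SD, and all 10 had a lower mean in ketamine than in saline, with a median of -0.10. A lower mean in ketamine than in saline was held by 54.6% of all genes and by 64.5% without the dimmest 33.3%. The 14 meningeal fibroblast genes had a median of -0.17 between ketamine and saline, with Ogn and Slc13a4 lower at an unadjusted p under 0.05, and -0.079 between ketamine and SD. Their summed intensity ranged from 2574 to 2886 in ketamine, from 2852 to 3052 in SD and from 2877 to 3460 in saline. The summed intensity of the endothelial genes ranged from 8134 to 9435 in ketamine, from 9165 to 9638 in SD and from 8919 to 9557 in saline. Summed neuronal markers overlapped, at 32192 to 34150 in ketamine, 32068 to 33159 in SD and 32199 to 33754 in saline. Of all genes, 53.4% had a lower and 46.6% a higher mean in SD than in saline. All 9 oligodendrocyte genes had a lower mean in SD than in saline (median -0.20), as did all 9 choroid plexus and ependymal genes (-0.17) and all 9 genes not expected in cortex (-0.14), while 7 of 9 microglial genes had a higher mean (0.071). Each of these medians was farther from 0 than the endothelial median of 0.049. Oligodendrocyte genes had a median of 0.26 between ketamine and SD and choroid plexus and ependymal genes 0.16. The choroid plexus gene Ttr had 207, 467 and 138 in the ketamine arrays, 89.5, 104 and 428 in the SD arrays and 1624, 8428 and 109.5 in the saline arrays, with saline arrays 1 and 2 far above the rest. The 8 genes of perivascular macrophages had a median of 0.076 between ketamine and SD, and the 9 genes not expected in cortex had 0.23. Of the erythroid genes 1 of 9 was measured, Slc4a1, at 0.019. No gene of these lists was at 0 in any array, and the part of these cells in the endothelial differences was not tested.

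Promoter sequence from RefSeq was used to look for GGAAG in the promoters of members. It is a longer form of the GGAA core that ETS factors such as Erg and Ets1 recognise. The table held promoters of 21 endothelial and 4 mural members, and the 4 shown are the endothelial members with the smallest p between ketamine and SD among those 21. Promoters of Vwf, Pecam1 and Nos3, also among the members with the lowest p, were not analysed here. Each promoter shown is the 250 bases before the start, 5′ to 3′ on the gene's strand, build GRCm38.p6. Capitals mark GGAAG or its reverse complement CTTCC. Flt1 lies at chr5:147726012-147726261 on the minus strand, Eng at chr2:32646345-32646594 on the plus strand, Mfsd2a at chr4:122961189-122961438 on the minus strand and Cldn5 at chr16:18776597-18776846 on the plus strand.
Flt1: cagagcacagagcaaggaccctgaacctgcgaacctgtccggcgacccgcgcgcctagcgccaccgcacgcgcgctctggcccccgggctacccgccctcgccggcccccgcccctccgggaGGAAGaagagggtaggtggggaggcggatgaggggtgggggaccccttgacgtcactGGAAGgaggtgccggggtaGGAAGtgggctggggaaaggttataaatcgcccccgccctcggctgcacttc
Eng: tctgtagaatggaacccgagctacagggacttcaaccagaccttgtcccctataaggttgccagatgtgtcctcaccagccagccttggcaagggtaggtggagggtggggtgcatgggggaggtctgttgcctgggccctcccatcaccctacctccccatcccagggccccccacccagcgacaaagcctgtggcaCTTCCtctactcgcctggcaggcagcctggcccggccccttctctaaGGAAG
Mfsd2a: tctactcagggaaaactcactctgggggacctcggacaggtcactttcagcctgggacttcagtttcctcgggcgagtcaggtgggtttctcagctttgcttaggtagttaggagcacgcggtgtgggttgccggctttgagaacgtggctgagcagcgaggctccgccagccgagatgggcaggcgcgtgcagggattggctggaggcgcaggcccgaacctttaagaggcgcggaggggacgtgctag
Cldn5: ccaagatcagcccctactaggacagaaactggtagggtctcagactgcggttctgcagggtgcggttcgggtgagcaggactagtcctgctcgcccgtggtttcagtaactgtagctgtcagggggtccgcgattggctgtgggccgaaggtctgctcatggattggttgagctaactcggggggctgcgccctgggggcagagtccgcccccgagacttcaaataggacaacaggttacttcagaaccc
Flt1 held 3 matches to GGAAG and Eng 2, whereas Mfsd2a and Cldn5 held 0 in these windows. The shorter GGAA was not counted, and the Mfsd2a window holds it on both strands. GGAAG on either strand was in 20 of 29 endothelial promoters (69.0%) and in 2 of 4 mural promoters, against 64.1% of all 32851 promoters. GGAAG was added after the longer sites had been searched. The longer site CAGGAAGT was in 2 of 29 endothelial promoters (6.9%), those of Abcg2 and Egfl7, against 2.69% of all, and CCGGAAGT in 0 of 29 against 2.88%. The CArG box, which serum response factor binds, was searched only in its strict form CCWWWWWWGG, W being A or T. That form was in 0 of the 33 promoters of members against 1.47% of all. Near matches were not counted, such as CCCTATATGG and CCTTGTTTGG in the Acta2 promoter, so the 0 does not show that such boxes are absent. The glucocorticoid receptor palindrome was in 0 against 0.387%. A match is a run of letters and not a bound site, and all sites were searched on both strands. CAGGAAGT and CCGGAAGT each contain GGAAG.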

How the data were processed

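Total RNA of 9 anterior cingulate cortices was hybridised to 9 Affymetrix arrays. Values were made by the authors with PLIER 2.0, which combines a probe set's probes, in Affymetrix Expression Console 1.1.1, per the submitters' processing notes. The deposited values are linear intensities of 41345 probe sets, used as deposited; for background correction and normalization between arrays, the method is not given in the sources used. They were put on a log2 scale as log2(intensity + 16) of the authors' intensities, which understates changes of dim genes. Of the probe sets, 23521 had 1 gene symbol in the platform annotation, 1814 several and 16010 none. Symbols were updated to RefSeq names (23328 matched). The brightest probe set was kept per gene, which chose among several for Foxq1 and Rgs5 here, and left 22180 genes. No 2 arrays held identical values.

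Tests used limma 3.58.1 (R 4.3.3; functions lmFit, contrasts.fit and eBayes) with 6 residual degrees of freedom, called at a Benjamini-Hochberg adjusted p of 0.05 over all genes. The fit was also run on simulated data with independent errors and no shifts of whole arrays. That run does not show how such shifts act here. The number of arrays, 3 a group, limits the precision. The labels list the arrays group by group. Whether this was the order of processing is not known here, so an effect of that order could not be checked. Replicate numbers entered only 1 alternative fit. Any member could be named. Changes with p were given for members under an unadjusted p of 0.05, the 3 endothelial and 2 mural members with the widest change per comparison, and members discussed elsewhere with statistics. At most 4 genes per further list and comparison were named, by smallest p. Members, lists and rules were chosen with earlier results of these data known. Another 20 analyses varied the processing.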

Additional observations from a re-analysis of the deposited data

How the results depend on the processing

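Of the 20 other analyses, 19 were planned. The removal of ketamine array 3 and SD array 2 together was chosen after seeing the data. Whether the differences between settings have 1 cause was not tested.

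Between ketamine and SD, limma called 14 genes with an offset of 64, 5 without the dimmest genes, 15 with limma-trend, 42 with array weights and 1 without both arrays, and 0 to 214 when single arrays were left out, 214 being without SD array 3. Members lower at an unadjusted p under 0.05 numbered 11 in the reported analysis, 3 to 14 when single arrays were left out and 6 without both arrays. Members higher numbered 0, against 1 with an offset of 64, 3 after quantile normalization, 1 without the dimmest genes, 1 with limma-trend, 1 with array weights, 2 without both arrays and 0 to 1 without single arrays. The endothelial median ranged from -0.199 to -0.132 without single arrays. The mural median of -0.048 reversed to 0.023 after quantile normalization and ranged from -0.115 to -0.031 without single arrays.

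Between ketamine and saline, array weights, which gave ketamine array 2 a weight of 7.92, called 1439 genes against 0, among them Tek at -0.30 (adjusted p = 0.0399) and Emcn at -0.30 (adjusted p = 0.0283). Under the same weights Vwf passed between ketamine and SD at -0.63 (adjusted p = 0.0404). Members lower at an unadjusted p under 0.05 numbered 0, against 2 with an offset of 64, 2 after quantile normalization, 1 without the dimmest genes, 1 with limma-trend, 12 with array weights, 1 with only the groups compared, and 0 to 4 without single arrays. Members higher numbered 1 after quantile normalization and 1 with array weights. The mural median of -0.056 reversed to 0.002 after quantile normalization and to 0.018 with array weights. The endothelial median ranged from -0.130 to -0.022 without single arrays.

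Between SD and saline, limma called 1 gene with arrays centred on their medians, 3 with limma-trend, 1 without both arrays and 0 to 4 without single arrays. Members lower numbered 1, against 3 without both arrays and 0 to 3 without single arrays, and members higher numbered 3, against 4 with an offset of 64, without the dimmest genes, with array weights and without both arrays, and 1 to 3 without single arrays. The mural median of 0.016 became -0.001 with all probe sets of a gene averaged and -0.018 without both arrays, and ranged from -0.018 to 0.049 without single arrays.

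With the replicate number as a block, 0 genes were called in each comparison and 11 members were lower between ketamine and SD at an unadjusted p under 0.05. Deviations of same-numbered arrays correlated between -0.201 and 0.444, and those of other pairs between -0.514 and 0.536. Shifts of single arrays enter these values, so they do not decide whether same-numbered arrays were paired or share a batch. With 3 arrays a group and a median SE of 0.11, differences as small as those of most members could not be told from 0.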
